A study of Mus musculus with 6 samples.

Results

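The 31 genes described here form a list of glycolysis and hypoxia-response genes, chosen by name from the 55023 genes of the deposited count table. They comprise 23 glycolytic members, from the glucose transporter gene Slc2a1 to the lactate exporter gene Slc16a3 and the kinase gene Pdk1, and 8 other hypoxia targets: Bnip3, Egln3, Ankrd37, Adm, Ndrg1, P4ha1, Car9 and Vegfa. RNA was sequenced from macrophages of the mouse, derived in culture from bone marrow precursors. The 3 groups, of 2 libraries each, were vehicle, LTα1β2 and LCL161 plus LTα1β2, all after 24 h. LTα1β2 is the membrane form of lymphotoxin, a ligand of the lymphotoxin beta receptor. LCL161 is a drug-like mimetic of SMAC that antagonises the ubiquitin ligases cIAP1 and cIAP2. It was given to no group without LTα1β2, so its effect on its own was not measured. The labels give no genotype, sex, age or dose, and do not say whether the 2 libraries of a group came from separate animals or cultures. The p-values therefore rest on a spread between libraries that may be only technical.

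Glycolysis turns glucose into pyruvate in the cytosol, and macrophages draw on it when they are activated by inflammatory signals. Many of its genes are targets of HIF-1, a dimer of HIF-1α (Hif1a) and ARNT that binds the core letters ACGTG or GCGTG in DNA. Prolyl hydroxylases of the EGLN family mark HIF-1α for capture by VHL and destruction when oxygen is present, and inflammatory signals can raise Hif1a transcription without hypoxia.

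Total counts were 14718368 to 19049613 per library, and levels are given as CPM, the counts scaled to a common library size with factors from the trimmed mean of M-values (TMM). All 31 members passed the filter on low counts. The 8 macrophage markers summed to 27565 to 33996 CPM in the 6 libraries, although 5 were higher and 1 lower with LTα1β2 and 3 were higher and 3 lower on adding LCL161. By contrast, 4 T cell markers reached at most 1.68 CPM, 4 B cell markers 12 CPM and 5 erythroid markers 3.35 CPM. Stromal markers moved with the groups: 10 fibroblast genes summed to 6670 and 4143 CPM with vehicle, 1677 and 2440 CPM with LTα1β2 and 424 and 485 CPM once LCL161 was added, and 7 of the 9 tested fell in each of the 3 comparisons. The 5 myofibroblast markers fell alongside them, from 4218 and 3427 CPM over 1266 and 1609 CPM to 393 and 364 CPM. The 5 osteoblast markers summed to 89.2 and 34.1 CPM, 12.7 and 18.9 CPM, and 6.79 and 7.20 CPM in the same order. The 5 proliferation markers went from 420 and 356 CPM over 211 and 247 CPM to 91.2 and 76.9 CPM, with 4 lower with LTα1β2 and all 5 lower on adding LCL161. The 8 neutrophil markers stood at 538 and 791 CPM, 1039 and 815 CPM, and 364 and 387 CPM, with 3 higher with LTα1β2 and 5 lower on adding LCL161. The 5 endothelial markers, at 9.04 to 17.6 CPM, and the 4 adipocyte markers, at 12.2 to 29.8 CPM, were low. In bulk samples, fewer cells of a type and less RNA per cell cannot be told apart. The part of these cells in the results below was not tested.

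The upstream windows of 6 members are shown because these genes moved in opposite directions in the results below: Pgk1, Ldha and Bnip3 among those higher with LCL161, Hk3 as the member with the largest rise with LTα1β2, and Ldhb and Adm with the largest falls. They were chosen after the values were seen. Each is the 250 bases before a RefSeq start in GRCm38.p6, read along the gene's strand, with ACGTG or GCGTG in capitals wherever either occurs on either strand, so that CACGT and CACGC mark matches on the other strand. The windows lie at chrX:106186850-106187099 (plus strand) for Pgk1, chr7:46845554-46845803 (plus) for Ldha, chr7:138909507-138909756 (minus) for Bnip3, chr13:55021386-55021635 (minus) for Hk3, chr6:142507958-142508207 (minus) for Ldhb and chr7:110627407-110627656 (plus) for Adm.
Pgk1: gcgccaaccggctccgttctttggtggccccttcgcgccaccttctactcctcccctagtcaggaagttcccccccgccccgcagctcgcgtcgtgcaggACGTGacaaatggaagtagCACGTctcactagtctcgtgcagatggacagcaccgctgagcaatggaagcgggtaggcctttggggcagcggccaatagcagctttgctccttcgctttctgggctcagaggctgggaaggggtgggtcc
Ldha: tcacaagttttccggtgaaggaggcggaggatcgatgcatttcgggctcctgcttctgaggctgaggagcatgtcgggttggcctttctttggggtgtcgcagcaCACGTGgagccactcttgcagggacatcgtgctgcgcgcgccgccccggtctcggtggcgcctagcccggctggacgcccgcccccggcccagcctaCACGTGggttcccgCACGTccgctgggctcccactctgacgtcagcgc
Bnip3: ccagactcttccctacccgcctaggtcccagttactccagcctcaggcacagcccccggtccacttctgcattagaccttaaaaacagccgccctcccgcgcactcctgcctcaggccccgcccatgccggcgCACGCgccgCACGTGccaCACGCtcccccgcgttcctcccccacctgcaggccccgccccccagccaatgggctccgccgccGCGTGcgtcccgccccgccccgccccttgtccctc
Hk3: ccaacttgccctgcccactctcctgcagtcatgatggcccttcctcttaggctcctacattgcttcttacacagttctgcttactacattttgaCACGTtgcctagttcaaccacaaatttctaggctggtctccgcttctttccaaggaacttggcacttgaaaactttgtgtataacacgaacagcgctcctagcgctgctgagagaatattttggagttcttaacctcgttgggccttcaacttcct
Ldhb: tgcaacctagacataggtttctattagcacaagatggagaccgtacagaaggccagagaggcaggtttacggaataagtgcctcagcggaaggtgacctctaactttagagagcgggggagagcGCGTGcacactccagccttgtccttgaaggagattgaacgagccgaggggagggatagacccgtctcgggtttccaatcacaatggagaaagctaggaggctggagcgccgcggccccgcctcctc
Adm: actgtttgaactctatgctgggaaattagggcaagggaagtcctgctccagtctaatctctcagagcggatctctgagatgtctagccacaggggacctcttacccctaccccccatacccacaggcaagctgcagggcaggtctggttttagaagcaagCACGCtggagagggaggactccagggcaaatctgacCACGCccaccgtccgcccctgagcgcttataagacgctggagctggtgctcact
Ldha and Bnip3 each held 5 matches in these 250 bases, counting the palindrome CACGTG on both strands, against 2 in Pgk1 and Adm and 1 in Hk3 and Ldhb. RefSeq has another Ldha start, whose 250 bases upstream (chr7:46846832-46847081) held 1 match. The other 5 genes shown have 1 window each. Windows not shown held 0 matches (as in Eno2 and Tpi1) to 3 (Pgam1 and P4ha1) in genes called higher on adding LCL161. In genes called lower there, they held 0 to 2 (the latter in windows of Pfkm and Vegfa). Whether the number of matches goes with the direction of change was not tested. Over windows reaching from 250 bases before to 50 after a start, RefSeq gave 44 for 30 of the 31 members, with Ndrg1 the exception. The letters ACGTG or GCGTG occurred in 35 of these 44 (79.5%), against 43.8% of all 32851 windows of the same length. The 35 covered 27 of the 30 genes, and no share counted by gene was taken over all genes. Some windows of the same gene overlap. The list was chosen to hold hypoxia-response genes, so these windows are no independent check on the letters bound by HIF-1. ACGTG alone was in 52.3% of member windows against 19.6% of all, and GCGTG in 54.5% against 32.4%. Member windows were also richer in G and C, with a median of 60.2% against 52.7%, and the part of base composition in the motif shares was not tested. The E-box CACGTG, which contains ACGTG, was in 9.09% of member windows against 7.15%, and TTCNNNGAA, the form bound by STAT factors, in 4.55% against 8.30%. A match is a stretch of letters and does not show binding.

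Aldoa, encoding the main aldolase of glycolysis, was the member with the highest level per length of its exon union in all 3 groups. It reached 569 ± 53.1 CPM per kb of exon with vehicle, 725 ± 17.3 with LTα1β2 and 1050 ± 135 with LCL161 plus LTα1β2 (mean ± SD, n = 2 each). Ldha, Pkm, Eno1 and Gapdh filled the next 4 places with vehicle, at 488 to 327 CPM per kb. Neighbours in that order were often closer than their spread: Ldha stood at 488 ± 24.4 and Pkm at 446 ± 39.4 CPM per kb with vehicle. All places also depend on the length used. The exon union and the longest transcript were 5379 and 2027 bases for Eno1 and 5001 and 2432 for Pkm. They were 2911 and 1549 bases for Aldoa and 3682 and 3219 for Hk3. Places by longest transcript were not worked out, and those given here hold for the exon union only. Hk3 moved from place 11 with vehicle (43.8 ± 4.47 CPM per kb) to place 3 with LTα1β2 (526 ± 8.96) and place 6 with LCL161 plus LTα1β2 (419 ± 44.5). Ldhb moved from place 14 to 13 and then 22, and Adm from 21 to 27 and then 30. The 23 glycolytic members together took 11251 and 11807 CPM with vehicle, 15009 and 15923 with LTα1β2 and 17566 and 20076 with the combination. The 8 other hypoxia targets summed to between 498 and 525 CPM in the 6 libraries. Single genes among them moved in opposite directions, as given below. Scaled by total counts alone, the glycolytic sums were still ordered by group (12886 and 12924, 14738 and 15634, 16356 and 17487 CPM). The hypoxia targets then summed to 573 and 547 CPM with vehicle, 501 and 513 with LTα1β2 and 464 and 457 with the combination. On that scale Slc2a1, Hk1, Hk2 and Hk3 together went from 522 and 523 CPM with vehicle to 2296 and 2399 with LTα1β2. These 4 made up much of that step in the glycolytic sum. Upper glycolysis went from 2672 and 2842 to 3028 and 3182 CPM, and lower glycolysis from 7495 and 7569 to 7864 and 8381. Ldha, Ldhb, Slc16a3 and Pdk1 together fell from 2196 and 1990 to 1549 and 1673 CPM.

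**Figure D1:**
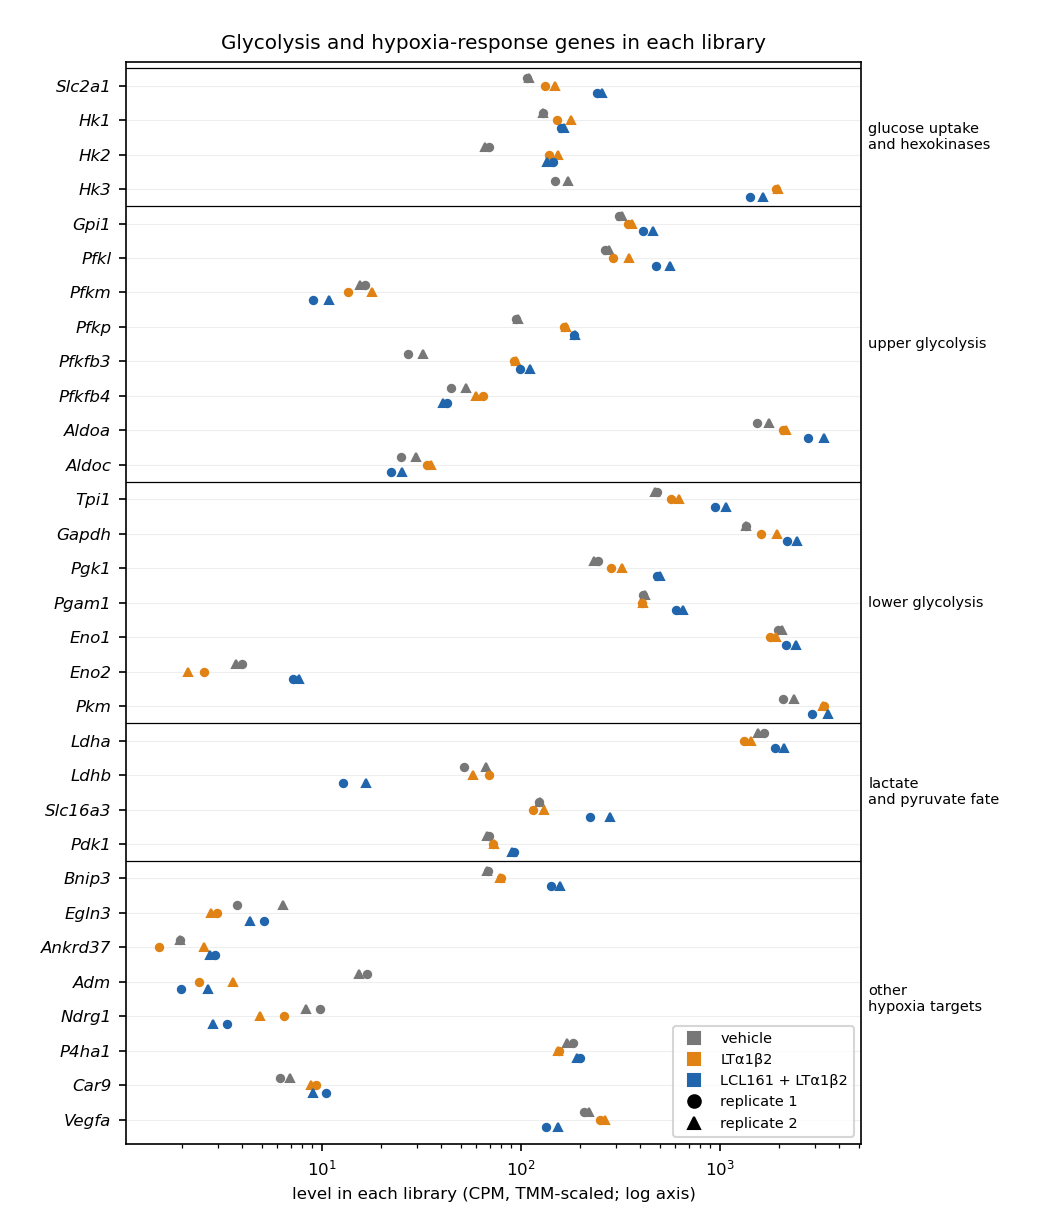
Level of each of the 31 genes in each of the 6 libraries, in TMM-scaled CPM on a log axis; colours mark the groups, circles replicate 1 and triangles replicate 2. Most glycolytic genes lie furthest right with LCL161 plus LTα1β2, Hk3 separates vehicle (150 and 173 CPM) from both treated groups (1428 CPM or more), and Ldhb and Ndrg1 lie furthest left with the combination.

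Each member was tested with edgeR's quasi-likelihood test, with p-values adjusted by the Benjamini-Hochberg method over 18812 genes and called at an adjusted p under 0.05. Between LTα1β2 and vehicle 8 of the 31 members were higher and 3 lower, where 12.8% of all genes tested were called higher and 10.6% lower. Between LCL161 plus LTα1β2 and LTα1β2 12 were higher and 6 lower, against 10.6% and 15.1% of all genes. Between LCL161 plus LTα1β2 and vehicle 20 were higher and 5 lower, against 18.4% and 21.1% of all genes. The counts of members lower lie close to those shares in each comparison. The median log2 change of the 31 members was 0.25, 0.30 and 0.54 in these comparisons, beside -0.04, 0.0045 and 0.05 over all genes tested. The comparisons share libraries and are not independent of one another. Alternatives named below as losing a call are not a full list for each gene, and some others are given at the end.

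Glycolytic members and other hypoxia targets are given apart. Of the 23 glycolytic members, 8, 10 and 18 were higher and 1, 4 and 2 lower in the order above, with median log2 changes of 0.34, 0.30 and 0.78. Of the 8 other hypoxia targets, 0, 2 and 2 were higher and 2, 2 and 3 lower, with medians of -0.05, 0.21 and 0.02. Of all genes, 12.8%, 10.6% and 18.4% were called higher and 10.6%, 15.1% and 21.1% lower. Each count of the 8 lies within 2 genes of its share. The count of 0 higher with LTα1β2 was the same in DESeq2 and limma voom, and 2 of the 8 had an unadjusted p under 0.05 in edgeR. With total counts alone as the scale, the median of all genes moved to -0.23, -0.12 and -0.26 and that of the members to 0.06, 0.18 and 0.23. On that scale 5 members were higher and 7 lower with LTα1β2 against vehicle. The count of 8 higher fell to 4 without the first vehicle library, 5 without the second and 4 without the second LTα1β2 library. The 3 lower fell to 1 without the second vehicle library or either LTα1β2 library, and the 12 higher with LCL161 fell to 7 without the first LTα1β2 library.

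**Figure D2:**
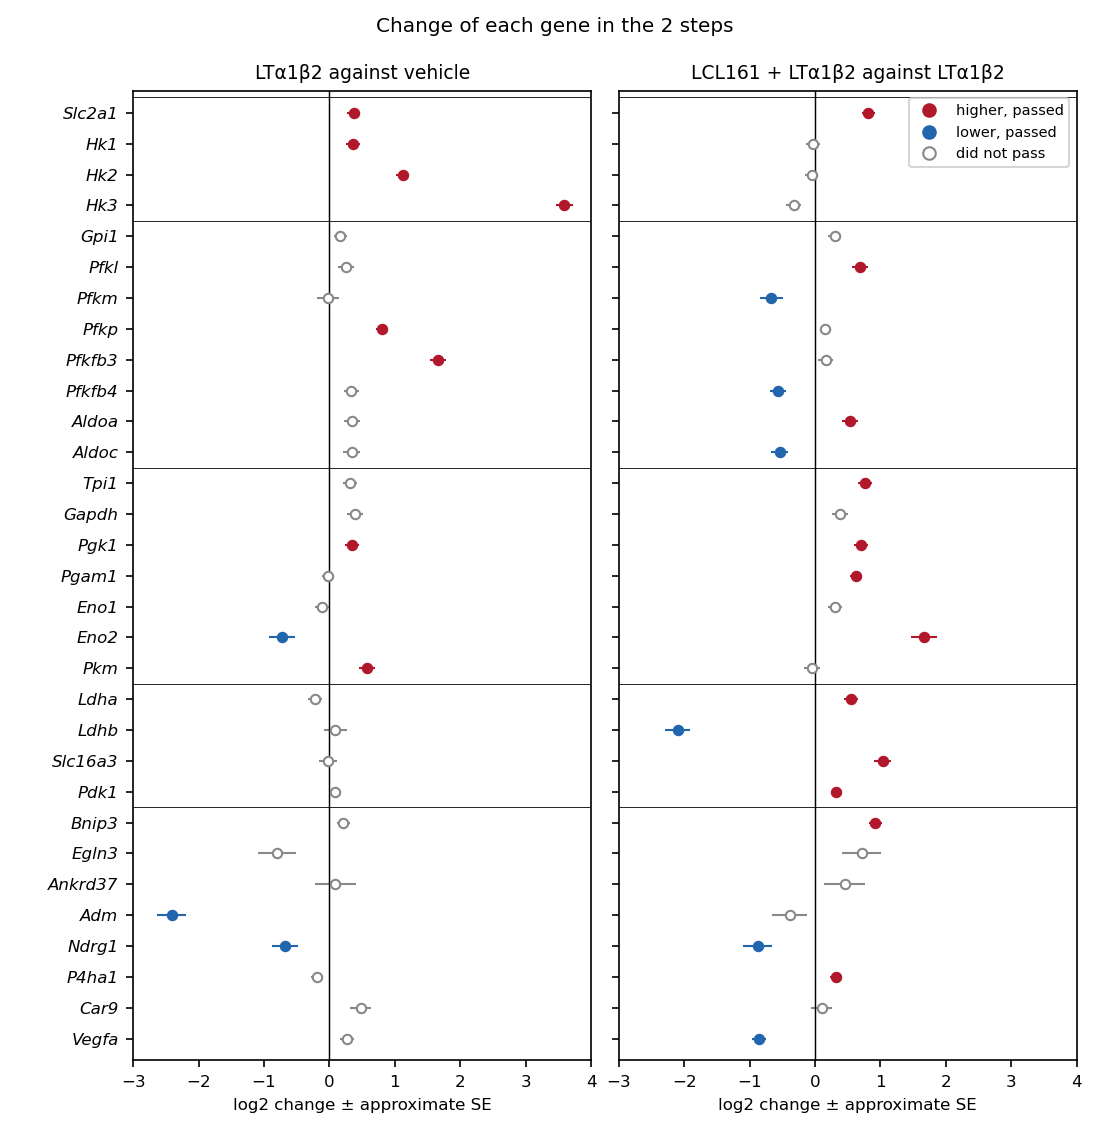
Log2 change of each gene with its approximate SE, for LTα1β2 against vehicle (left) and LCL161 plus LTα1β2 against LTα1β2 (right); filled points passed edgeR's test at an adjusted p under 0.05 and open points did not. Hk2, Hk3, Pfkp and Pfkfb3 passed on the left and not on the right, and Pfkl, Tpi1, Pgam1, Ldha, Slc16a3 and Bnip3 the other way round, where Ldhb lies furthest to the left; the comparisons share the LTα1β2 libraries, and the difference between panels was not tested.

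Transcripts of all 3 hexokinase genes and of the transporter gene Slc2a1 were higher with LTα1β2, with the largest change in Hk3 and calls for Hk1 and Slc2a1 that depended on the scaling. Hk3, encoding hexokinase 3 (chr13:55005985-55021385, minus strand), was at 150 and 173 CPM with vehicle, 1914 and 1960 CPM with LTα1β2, and 1428 and 1660 CPM with LCL161 plus LTα1β2. Both treated groups lay far above vehicle, and the combination libraries lay below those with LTα1β2 alone. The rise with LTα1β2 was 12-fold (log2 change 3.59, SE 0.13, adjusted p = 3.06e-06 by edgeR). Adding LCL161 gave a log2 change of -0.33 that did not pass (adjusted p = 0.0794 by edgeR), although it passed on total counts alone (-0.45, adjusted p = 0.0101) and without a filter on low counts (-0.46, adjusted p = 0.000433).

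Hk2, the inducible hexokinase that binds mitochondria (chr6:82725025-82774454, minus strand), stood at 69.1 and 66.0 CPM with vehicle, 138 and 155 CPM with LTα1β2, and 146 and 136 CPM with both agents. Vehicle lay apart, and the treated groups overlapped. The rise with LTα1β2 was 2.17-fold (log2 1.12, SE 0.10, adjusted p = 0.00029 by edgeR), with a log2 change of -0.05 on adding LCL161 (adjusted p = 0.727). Hk1, the widely expressed hexokinase, went from 129 in both vehicle libraries to 153 and 179 CPM with LTα1β2 and 159 and 165 CPM with the combination. Its rise with LTα1β2 was small (log2 0.36, adjusted p = 0.0431 by edgeR) and did not pass on total counts (adjusted p = 0.269), nor without either vehicle library, the second LTα1β2 library or the second combination library (0.0556 to 0.286). Against vehicle the combination gave 0.33 (adjusted p = 0.0393), which was lost on total counts (0.898) and without either vehicle library, the second LTα1β2 library or either combination library (0.0663 to 0.226).

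Slc2a1, encoding the glucose transporter GLUT1 (chr4:119108711-119137983, plus strand), rose mainly on adding LCL161. Its libraries were at 108 and 110 CPM with vehicle, 133 and 149 CPM with LTα1β2 and 241 and 257 CPM with LCL161 plus LTα1β2, with no overlap between groups. The combination exceeded LTα1β2 by 1.76-fold (log2 0.82, SE 0.10, adjusted p = 0.00101 by edgeR). The smaller rise with LTα1β2 alone (log2 0.37, adjusted p = 0.0306) was lost on total counts (0.192) and without either vehicle library or the second LTα1β2 library (0.120 to 0.213).

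Per kb of exon, Hk3 was the leading hexokinase transcript in every library. Its share of the sum of Hk1, Hk2 and Hk3 was 62.3% ± 2.76 with vehicle, 92.3% ± 0.541 with LTα1β2 and 90.7% ± 1.02 with the combination (SD, n = 2 each). Measured against the longest transcript in place of all exons, the shares were 54.1%, 90.2% and 88.2%. Hk1 made up 21.6% ± 1.31 with vehicle but 3.40% ± 0.30 with LTα1β2, although its own level did not fall.

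**Figure D3:**
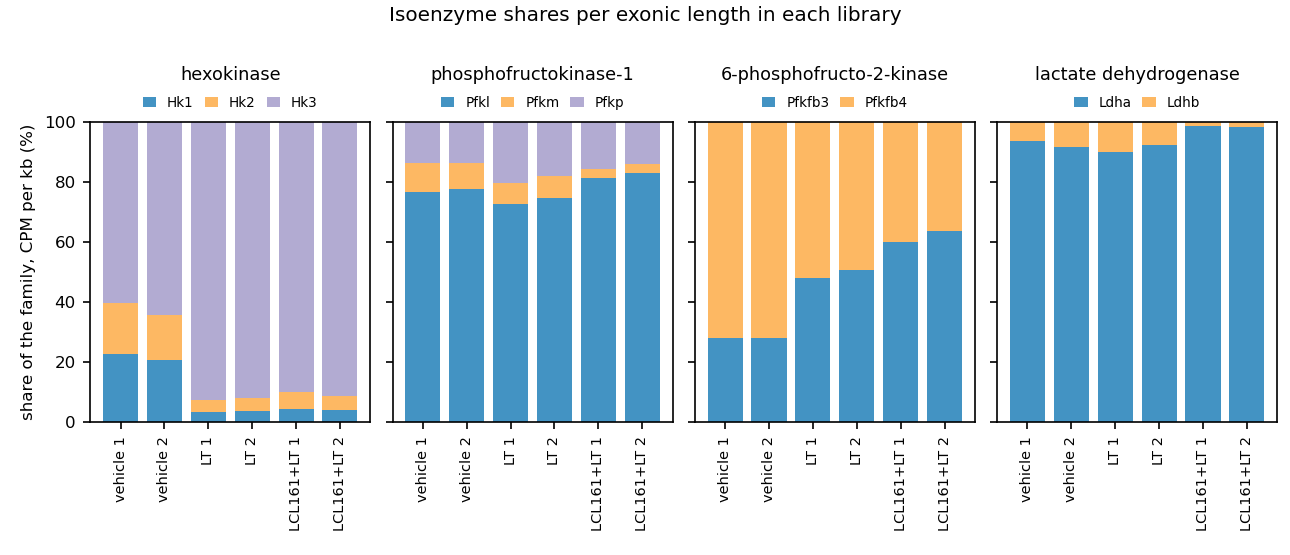
Share of each isoenzyme gene in its family in each library, as a percent of the summed CPM per kb of exon; each bar is 1 library and adds up to 100%. The Hk3 share is above 89% in all 4 treated libraries, the Pfkfb3 shares of the 3 groups do not overlap, and the Ldhb share is lowest in the 2 libraries with LCL161.

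In upper glycolysis, the platelet-type phosphofructokinase gene Pfkp and the regulator gene Pfkfb3 rose with LTα1β2, whereas the liver-type gene Pfkl rose on adding LCL161. Pfkfb3 encodes an enzyme that makes fructose 2,6-bisphosphate, the activator of phosphofructokinase (chr2:11471433-11554077, minus strand). It was at 27.2 and 32.4 CPM with vehicle, 92.7 and 95 CPM with LTα1β2, and 99.2 and 111 CPM with both agents. All 4 treated libraries lay above vehicle, and the 2 treated groups lay close together. The rise with LTα1β2 was 3.15-fold (log2 1.66, SE 0.12, adjusted p = 9.13e-05 by edgeR), and the further log2 change of 0.16 did not pass (0.322).

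Pfkp libraries stood at 95.1 and 96.7 CPM with vehicle, 165 and 170 CPM with LTα1β2, and 185 and 188 CPM with the combination. The first step was a log2 change of 0.80 (SE 0.09, adjusted p = 0.000695 by edgeR) and the step on adding LCL161 was 0.16 (adjusted p = 0.216). Pfkl was at 265 and 277 CPM, then 293 and 352 CPM, then 477 and 562 CPM. Its log2 change on adding LCL161 was 0.69 (SE 0.13, adjusted p = 0.00694 by edgeR), which was lost without the first LTα1β2 library (0.50, adjusted p = 0.0617).

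The muscle-type gene Pfkm went the other way from Pfkl, from 16.5 and 15.7 CPM with vehicle and 13.7 and 18.0 CPM with LTα1β2 to 9.05 and 10.9 CPM with the combination. That fall of 0.67 on the log2 scale against LTα1β2 passed (adjusted p = 0.0297 by edgeR) but not without the second LTα1β2 library or the first combination library (0.112 to 0.176) or with only the 4 libraries compared (0.0520). Against vehicle it fell by 0.69 (adjusted p = 0.0175), lost without the first vehicle or the first combination library (0.0694 to 0.0712). Exons of Pfkm overlap those of Gm26513 on the same strand and of Senp1 on the other. Per kb, Pfkl made up 77.2% ± 0.684, 73.6% ± 1.22 and 82.1% ± 1.24 of phosphofructokinase transcripts in the 3 groups, and Pfkm 9.17% ± 0.534, 7.19% ± 0.575 and 3.14% ± 0.0902 (SD, n = 2 each).

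Pfkfb4, the paralog of Pfkfb3, stood at 44.9 and 53.4 CPM with vehicle, 64.5 and 59.5 CPM with LTα1β2, and 42.9 and 40.7 CPM with the combination. It fell by 0.57 on the log2 scale on adding LCL161 (SE 0.12, adjusted p = 0.0124 by edgeR), under every alternative tried (up to 0.0481). The Pfkfb3 share of the pair per kb was accordingly 28.1% ± 0.0117, 49.4% ± 1.84 and 61.8% ± 2.78 (SD, n = 2 each). Aldoa libraries held 1548 and 1767 CPM, then 2074 and 2145 CPM, then 2779 and 3335 CPM. The step of Aldoa with LTα1β2 did not pass (log2 0.35, adjusted p = 0.0857 by edgeR). That step passed in DESeq2 (0.0425) and without a filter (0.000835). The rise on adding LCL161 (log2 0.54, SE 0.13, adjusted p = 0.0187 by edgeR) was lost without either LTα1β2 library or the second combination library (0.115 to 0.138), whereas that against vehicle (log2 0.88, adjusted p = 0.00105) passed under every alternative. Aldoc, the brain-type aldolase gene, fell by 0.54 on the log2 scale on adding LCL161 (adjusted p = 0.0225), lost without the second LTα1β2 or the first combination library (0.0754 to 0.113).

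Gpi1, encoding glucose-6-phosphate isomerase, did not pass on adding LCL161 (log2 0.30, adjusted p = 0.0583 by edgeR). It did pass there under 4 alternatives, DESeq2 (0.0313) and limma voom (0.0417) among them. Gpi1 was higher with the combination than with vehicle (414 and 465 CPM against 311 and 324 CPM). The log2 change was 0.47 (adjusted p = 0.00738 by edgeR), and it was lost on total counts (0.178) and without the first vehicle or the second combination library (0.0705 to 0.0959).

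Of the 7 genes of lower glycolysis, 4 rose on adding LCL161 (Tpi1, Pgk1, Pgam1 and Eno2), and Gapdh, Eno1 and Pkm did not pass there. With LTα1β2 against vehicle Pgk1 and Pkm were higher and Eno2 was lower. Tpi1, encoding triosephosphate isomerase (chr6:124810586-124814296, minus strand), was at 486 and 473 CPM with vehicle, 570 and 626 CPM with LTα1β2, and 950 and 1081 CPM with LCL161 plus LTα1β2. The groups did not overlap, and the step on adding LCL161 was 1.70-fold (log2 0.76, SE 0.11, adjusted p = 0.00194 by edgeR). Its step with LTα1β2 did not pass (log2 0.32, adjusted p = 0.0676 by edgeR). That step passed under 3 alternatives, DESeq2 (0.0330) and limma voom (0.0430) among them. Pgk1, encoding phosphoglycerate kinase (chrX:106187100-106203699, plus strand), was at 244 and 234 CPM, 283 and 324 CPM, and 486 and 503 CPM in the same order. The combination exceeded LTα1β2 by a log2 change of 0.70 (SE 0.10, adjusted p = 0.00225 by edgeR). Its smaller difference between LTα1β2 and vehicle (log2 0.35, adjusted p = 0.0444) was lost on total counts (0.301) and with the counts of its near-identical copies added (0.0505), and also without either vehicle library, the second LTα1β2 library or either combination library (0.0569 to 0.285).

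Pgam1, the phosphoglycerate mutase gene, was higher with the combination than in the other 4 libraries, at 413 and 421 CPM with vehicle, 407 and 412 CPM with LTα1β2 and 606 and 652 CPM with the combination. The rise on adding LCL161 was 0.62 on the log2 scale (SE 0.09, adjusted p = 0.00243 by edgeR), and the change with LTα1β2 was -0.03 (adjusted p = 0.875). Gapdh, often used as a reference gene, was at 1352 and 1353 CPM, 1615 and 1944 CPM, and 2184 and 2451 CPM. Neither single step passed (adjusted p = 0.0530 and 0.0557 by edgeR), and the whole distance from vehicle to the combination did (log2 0.78, SE 0.12, adjusted p = 0.00176). Each single step of Gapdh passed under some alternatives, DESeq2 among them (0.0166 and 0.0213).

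Pkm, encoding pyruvate kinase M (chr9:59656368-59679375, plus strand), was called higher with LTα1β2 alone, from 2089 and 2368 CPM to 3331 and 3303 CPM, with 2929 and 3491 CPM in the combination. Its log2 change with LTα1β2 was 0.57 (SE 0.12, adjusted p = 0.0141 by edgeR), lost without the first vehicle or either LTα1β2 library (0.0523 to 0.0780). With the combination against vehicle it was 0.53 (adjusted p = 0.0120), lost on total counts (0.105) and without the first vehicle or the second combination library (0.0723 to 0.126).

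Of the enolase genes, the abundant Eno1 did not pass in any of the 3 comparisons, at 1801 to 2427 CPM over the 6 libraries. On total counts Eno1 was called lower with LTα1β2 against vehicle (log2 -0.30, adjusted p = 0.0367). Its change on adding LCL161 (log2 0.30, adjusted p = 0.0744 by edgeR) was called higher under 3 alternatives, DESeq2 (0.0318) and limma voom (0.0443) among them. Eno2, the neuronal enolase gene, was a minor transcript at 3.98 and 3.73 CPM with vehicle, 2.55 and 2.14 CPM with LTα1β2 and 7.15 and 7.66 CPM with the combination. Its rise on adding LCL161 was 3.16-fold (log2 1.66, SE 0.20, adjusted p = 0.000952 by edgeR). The fall of 0.72 on the log2 scale with LTα1β2 (adjusted p = 0.0374) was lost without either vehicle or either LTα1β2 library (0.0964 to 0.184) and in DESeq2 (0.106). Eno2 made up 0.368% ± 0.0119 of the sum of Eno1 and Eno2 per kb with the combination (SD, n = 2).

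Reads of several of these genes could be shared with copies. GENCODE M21 holds transcripts of other genes that match 11 of the 31 members at 95% identity or more over 200 bases or more, with 127 such genes for Gapdh. The copies' counts came to 19.6% of those of Pgam1, 12.7% for Pgk1, 11.6% for Gapdh, 9.72% for Eno1 and 5.71% for Bnip3, and to at most 2.85% for the other 6. Exons of 13 members overlap another gene on the other strand, and whether the counting used strand was not given in the sources used here. With copies added to their member, the calls that changed among members were that of Pgk1 above and that of Gapdh on adding LCL161, which then passed (log2 0.40, adjusted p = 0.0450 by edgeR).

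At the end of the pathway, the genes for making and exporting lactate rose on adding LCL161, while Ldhb fell. Ldha, encoding the A subunit of lactate dehydrogenase, which favours lactate formation (chr7:46841475-46855627, plus strand), was at 1671 and 1557 CPM with vehicle, 1321 and 1442 CPM with LTα1β2 and 1908 and 2119 CPM with the combination. LTα1β2 libraries were the lowest and combination libraries the highest. The rise on adding LCL161 was 0.54 (log2, SE 0.11, adjusted p = 0.00929 by edgeR), lost without either LTα1β2 library or the second combination library (0.0545 to 0.0851). The difference from vehicle was 0.32 (adjusted p = 0.0482), and it was lost in all 6 fits that left out 1 library (0.0635 to 0.373) and on total counts (0.976). On total counts Ldha was called lower with LTα1β2 than with vehicle (log2 -0.42, adjusted p = 0.0168).

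Ldhb, encoding the B subunit, which favours pyruvate (chr6:142490249-142507957, minus strand), was at 52.1 and 67.4 CPM with vehicle, 69.5 and 57.5 CPM with LTα1β2, and 12.8 and 16.8 CPM with the combination. Vehicle and LTα1β2 overlapped, and both libraries with LCL161 lay far below them. The fall on adding LCL161 was 4.29-fold (log2 -2.10, SE 0.19, adjusted p = 0.000297 by edgeR) and held under all 15 alternatives (up to 0.00171). The Ldhb share of lactate dehydrogenase transcripts per kb was 7.27% ± 1.55, 8.87% ± 1.57 and 1.52% ± 0.171 in the 3 groups (SD, n = 2 each).

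Slc16a3, encoding the lactate exporter MCT4 (chr11:120948480-120960868, plus strand), was at 124 and 125 CPM with vehicle, 115 and 131 CPM with LTα1β2, and 222 and 280 CPM with the combination. Vehicle lay within the LTα1β2 range, and both combination libraries lay above all others. The rise on adding LCL161 was 2.05-fold (log2 1.03, SE 0.13, adjusted p = 0.00126 by edgeR). Pdk1, a kinase that inhibits pyruvate dehydrogenase, was at 68.0 to 73.7 CPM in the first 4 libraries and at 92.9 and 90.9 CPM with the combination. Its rise on adding LCL161 (log2 0.33, adjusted p = 0.0324 by edgeR) was lost in all 6 fits that left out 1 library (0.106 to 0.190) and on total counts (0.151). Against vehicle the change was 0.42 (adjusted p = 0.00795), lost on total counts (0.400) and without either vehicle library (0.0808 to 0.0972).

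The 8 other hypoxia targets did not move as a block. Bnip3, encoding a mitophagy receptor (chr7:138890836-138909519, minus strand), rose on adding LCL161, at 68.7 and 68.0 CPM with vehicle, 79.5 and 79.0 CPM with LTα1β2, and 143 and 158 CPM with LCL161 plus LTα1β2. The groups did not overlap, and the step on adding LCL161 was 1.90-fold (log2 0.92, SE 0.10, adjusted p = 0.000501 by edgeR). P4ha1, a subunit of the collagen prolyl hydroxylase, was at 184 and 170 CPM, 156 and 154 CPM, and 198 and 192 CPM. Its rise on adding LCL161 (log2 0.33, adjusted p = 0.0350) was lost in all 6 fits that left out 1 library (0.0803 to 0.218) and on total counts (0.166). Fibroblasts also express P4ha1, and their summed markers fell over the same step, as given above; their part was not tested.

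Adm, encoding the vasoactive peptide adrenomedullin (chr7:110627661-110629820, plus strand), fell with LTα1β2. It was at 16.9 and 15.3 CPM with vehicle (366 and 284 counts), 2.42 and 3.58 CPM with LTα1β2 (38 and 67 counts), and 1.97 and 2.68 CPM with the combination (27 and 35 counts). Vehicle lay apart, and the treated groups overlapped. The fall with LTα1β2 was 5.32-fold (log2 -2.41, SE 0.22, adjusted p = 0.000306 by edgeR), while the change of -0.38 on adding LCL161 did not pass (0.316). The summed fibroblast markers were also lower with LTα1β2 than with vehicle, as given above, and their part in this fall was not tested.

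Ndrg1, a stress-response gene, was lower in each comparison, at 9.81 and 8.38 CPM with vehicle, 6.51 and 4.92 CPM with LTα1β2, and 3.36 and 2.83 CPM with the combination. The fall of 1.55 on the log2 scale from vehicle to the combination passed under every alternative (SE 0.22, adjusted p = 0.000944 by edgeR, up to 0.00521). The single steps were less firm. That with LTα1β2 (log2 -0.68, adjusted p = 0.0440) was lost without either vehicle or either LTα1β2 library (0.0700 to 0.230) and in DESeq2 (0.0875), and that on adding LCL161 (log2 -0.88, adjusted p = 0.0265) without the first LTα1β2 or the second combination library (0.0700 to 0.0791) and with only the 4 libraries compared (0.0501).

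Vegfa, encoding the angiogenic growth factor VEGF-A (chr17:46016993-46032369, minus strand), was at 209 and 222 CPM with vehicle, 252 and 267 CPM with LTα1β2, and 133 and 154 CPM with the combination. Combination libraries were the lowest and LTα1β2 libraries the highest. It fell 1.81-fold on adding LCL161 (log2 -0.85, SE 0.11, adjusted p = 0.00111 by edgeR) and by 0.59 on the log2 scale against vehicle (adjusted p = 0.00338), under every alternative tried, while the change of 0.27 with LTα1β2 did not pass (0.108). Car9, a carbonic anhydrase gene at 6.16 to 10.5 CPM, was higher with the combination than with vehicle (log2 0.58, adjusted p = 0.0250), a call lost on total counts (0.234), in DESeq2 (0.0721) and without either vehicle library, the second LTα1β2 library or the first combination library (0.0541 to 0.178). Egln3, at 2.78 to 6.38 CPM, and Ankrd37, at 1.53 to 2.92 CPM, did not pass in any comparison at TMM scaling with all 6 libraries, and the SEs of their log2 changes were 0.28 to 0.31. Egln3 had a log2 change of -0.80 with LTα1β2 (adjusted p = 0.0820 by edgeR). It was called lower there on total counts (-0.99, adjusted p = 0.0324) and without the first vehicle library (-1.15, adjusted p = 0.0278).

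Among 14 components of the HIF pathway, of which 13 were tested, Hif1a was the gene with the smallest p on adding LCL161. Hif1a was at 238 and 230 CPM with vehicle, 251 and 238 CPM with LTα1β2, and 599 and 561 CPM with LCL161 plus LTα1β2. Vehicle and LTα1β2 libraries lay together, and both combination libraries lay above them. The rise on adding LCL161 was 2.37-fold (log2 1.24, SE 0.09, adjusted p = 0.000148 by edgeR), against 0.07 with LTα1β2 alone (0.669). Epas1, encoding the paralog HIF-2α, fell, from 16.4 and 11.5 CPM with vehicle over 3.45 and 5.08 CPM to 2.19 and 0.842 CPM. Its fall with LTα1β2 (log2 -1.70, SE 0.33, adjusted p = 0.00937) was lost without the first vehicle or the first LTα1β2 library (0.0614 to 0.0747). That on adding LCL161 (log2 -1.49, adjusted p = 0.0382) was lost without the second LTα1β2 or the second combination library (0.0959 to 0.183), in limma voom (0.0631) and with only the 4 libraries compared (0.0607), and was larger without the first combination library (log2 -2.36, adjusted p = 0.0121). Against vehicle the fall with the combination was -3.19 (adjusted p = 0.000478), and -4.06 without the first combination library. Epas1 is also expressed in stromal and endothelial cells. The fibroblast markers given above fell over the same steps, while the summed endothelial markers went from 12.6 and 10.4 CPM with vehicle to 9.25 and 9.04 CPM with LTα1β2 and to 17.6 and 14.7 CPM with the combination; the part of either cell type was not tested.

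Arnt, the partner of both, was between 60.1 and 65.0 CPM in all 6 libraries and passed in no comparison at TMM scaling. On total counts it was called lower with the combination against vehicle (log2 -0.34, adjusted p = 0.0213). Vhl rose with LTα1β2, from 40.8 and 43.7 CPM to 79.2 and 70.8 CPM, with 79.1 and 80.0 CPM in the combination (log2 0.83, SE 0.10, adjusted p = 0.00133 by edgeR for the first step). Egln1, the main oxygen-sensing hydroxylase gene, was at 6 to 10.3 CPM and did not pass. Its log2 change with the combination against vehicle was 0.50 (adjusted p = 0.0565 by edgeR). With a minimum of 1 CPM in 2 libraries as the filter it was called higher there (0.0402). Eloc, a subunit of the VHL complex, fell with LTα1β2 (log2 -0.58, adjusted p = 0.00586), and Rbx1, its RING subunit, rose on adding LCL161 (log2 0.46, adjusted p = 0.0111), a call lost without either LTα1β2 library or the second combination library (0.0672 to 0.107). In all, 3 of 13 HIF components were higher and 2 lower with LTα1β2, 3 and 1 on adding LCL161, and 4 and 2 with the combination against vehicle. The shares of all genes called higher and lower were 12.8% and 10.6%, 10.6% and 15.1%, and 18.4% and 21.1% in these comparisons, and each count lies within 2 genes of its share. The median log2 change of the 13 was 0.05, 0.08 and 0.14, beside -0.04, 0.0045 and 0.05 over all genes.

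Of a further 24 hypoxia targets outside the member list, 3 were higher and 8 lower with LTα1β2, beside 12.8% and 10.6% of all genes. On adding LCL161 5 were higher and 9 lower, beside 10.6% and 15.1%, and with both agents against vehicle 6 were higher and 9 lower, beside 18.4% and 21.1%. Their median log2 changes were -0.40, -0.43 and -0.16. Nos2, the inducible nitric oxide synthase gene and a target of several inflammatory factors besides HIF, was at 0.556 and 0.324 CPM with vehicle, 5.74 and 8.77 CPM with LTα1β2 and 456 and 518 CPM with the combination. Its log2 change was 4.01 with LTα1β2 (SE 0.32, adjusted p = 0.000142 by edgeR) and 6.06 on adding LCL161 (SE 0.22, adjusted p = 9.13e-06). Bhlhe40, a transcriptional repressor, fell by 1.16 on the log2 scale with LTα1β2 (adjusted p = 0.000244) and rose by 2.01 on adding LCL161 (adjusted p = 3.2e-05). Tfrc, the transferrin receptor gene, fell from 176 CPM in both vehicle libraries to 55.3 and 48.8 CPM with LTα1β2 (log2 -1.76, SE 0.10, adjusted p = 2.83e-05) and to 36.0 and 36.9 CPM with the combination. Several of the genes that fell in this list, among them Lox, P4ha2 and Plod2, are also made by stromal cells. These 3 were chosen after their values were seen, and the part of stromal cells in the falls was not tested.

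**Figure D4:**
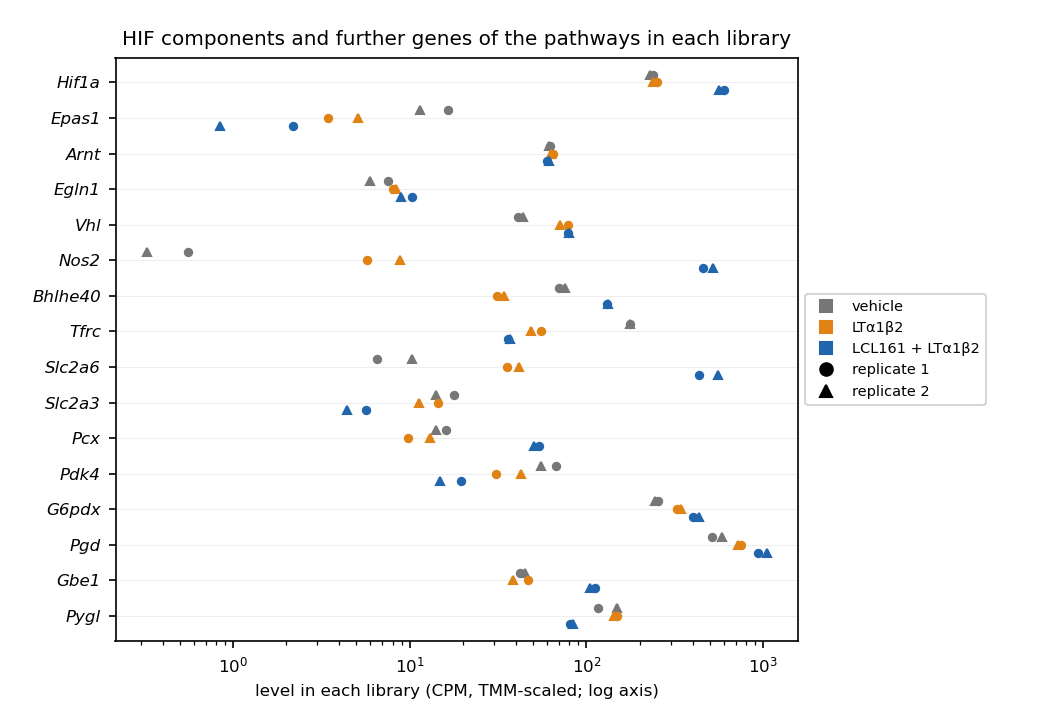
Level of 16 further genes of the HIF pathway and of glucose metabolism in each library, in TMM-scaled CPM on a log axis; colours mark the groups, circles replicate 1 and triangles replicate 2. Hif1a, Nos2, Slc2a6, Pcx and Gbe1 lie furthest right with LCL161 plus LTα1β2, and Epas1, Tfrc, Slc2a3, Pdk4 and Pygl furthest left.

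Among 20 other glucose transporter and glycolysis genes, of which 15 were tested, 1 was higher and 1 lower with LTα1β2 (12.8% and 10.6% of all genes), 2 and 3 on adding LCL161 (10.6% and 15.1%), and 2 and 5 against vehicle (18.4% and 21.1%). Their median log2 changes were -0.07, -0.20 and -0.12, and each count lies within 2 genes of its share. Slc2a6, a transporter gene of the GLUT family, had the smallest p in each comparison, at 6.57 and 10.3 CPM with vehicle, 35.7 and 41.5 CPM with LTα1β2, and 432 and 559 CPM with the combination. It rose by 2.20 on the log2 scale with LTα1β2 (SE 0.22, adjusted p = 0.000495 by edgeR) and by 3.68 on adding LCL161 (SE 0.22, adjusted p = 6.12e-05). Slc2a3, encoding GLUT3, went the opposite way, from 14.4 and 11.2 CPM with LTα1β2 to 5.69 and 4.44 CPM (log2 -1.33, SE 0.21, adjusted p = 0.00378). Eno3, the muscle enolase gene, fell by 0.70 with LTα1β2 (adjusted p = 0.0366), lost without the second vehicle library or either LTα1β2 library (0.146 to 0.208) and in DESeq2 (0.0653).

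Routes that branch from glycolysis were followed in 3 lists. In the pentose phosphate pathway 3 of 8 genes rose in each comparison, where 12.8%, 10.6% and 18.4% of all genes were called higher, with median log2 changes of 0.28, 0.18 and 0.34. By edgeR 0 fell; on adding LCL161, 2 were lower at an unadjusted p under 0.05, and DESeq2 and limma voom each called 1 of them. G6pdx, its entry enzyme, was at 256 and 244 CPM with vehicle, 325 and 341 CPM with LTα1β2 and 401 and 432 CPM with the combination. Its total change of 0.74 passed (log2, SE 0.09, adjusted p = 0.000558 by edgeR). The step with LTα1β2 (0.42, adjusted p = 0.0163) was lost on total counts (0.103) and without either vehicle or the second LTα1β2 library (0.0684 to 0.115), and the step on adding LCL161 (0.32, adjusted p = 0.0400) in all 6 fits that left out 1 library (0.0887 to 0.271) and on total counts (0.139). Pgd, the next oxidative enzyme, went from 516 and 583 CPM over 748 and 720 CPM to 942 and 1052 CPM, a total log2 change of 0.86 (SE 0.11, adjusted p = 0.000545). Each of its steps, 0.42 and 0.44, was lost in 3 such fits: the first without the first vehicle or either LTα1β2 library (0.0929 to 0.157), the second without either LTα1β2 or the second combination library (0.104 to 0.175). The first was also lost on total counts (0.0924). H6pd, the enzyme of the same step in the endoplasmic reticulum, was at 95.4 and 110 CPM with vehicle, 217 and 219 CPM with LTα1β2, and 88.9 and 168 CPM in the combination libraries, which lay far apart. Its rise with LTα1β2 (log2 1.09, SE 0.26, adjusted p = 0.0202 by edgeR) was lost without either vehicle or either LTα1β2 library (0.0607 to 0.129). Rpe, an epimerase of the pathway, rose by 0.36 on adding LCL161 (adjusted p = 0.0331), lost in all 6 fits that left out 1 library (0.0834 to 0.202) and on total counts (0.109).

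A list of 13 genes covered pyruvate dehydrogenase and its regulators, the mitochondrial pyruvate carrier and the pyruvate carboxylase gene Pcx. Of these, 0 were higher and 2 lower with LTα1β2 (12.8% and 10.6% of all genes), 4 and 1 on adding LCL161 (10.6% and 15.1%), and 5 and 3 against vehicle (18.4% and 21.1%). Pcx was among the 4 and the 5 higher. Median log2 changes of the 13 were -0.01, -0.10 and -0.01. For the count of 0, 1 gene had an unadjusted p under 0.05 in edgeR and 0 were called in DESeq2 or limma voom. Pdp1, which reactivates pyruvate dehydrogenase, was 1 of the 2 lower with LTα1β2 (log2 -0.41, adjusted p = 0.0340 by edgeR). That call was lost without either vehicle or either LTα1β2 library (log2 -0.47 to -0.37) and without a filter (adjusted p = 0.273). Pcx, encoding pyruvate carboxylase, rose from 9.83 and 13.1 CPM with LTα1β2 to 54.3 and 50.6 CPM (log2 2.19, SE 0.16, adjusted p = 0.000144). Pdk4, a kinase that inhibits pyruvate dehydrogenase like Pdk1, fell by 1.10 on adding LCL161 (log2, SE 0.21, adjusted p = 0.00744), opposite to Pdk1, and stood at 67.1 and 55.2 CPM with vehicle, 30.8 and 42.6 CPM with LTα1β2, and 19.6 and 14.8 CPM with the combination. Of 7 tested glycogen genes, 1 was higher with LTα1β2, namely the glycogen primer Gyg (log2 0.67, adjusted p = 0.00612, or 0.0608 without the first vehicle library). On adding LCL161, 2 of the 7 were higher and 3 lower, and Gyg was among the 3 lower (log2 -0.44, adjusted p = 0.0304 by edgeR). That call was lost with only the 4 libraries compared (0.0523) and without the first LTα1β2 or the first combination library (log2 -0.37 and -0.48). Against vehicle 2 were higher and 2 lower, and Gyg did not pass (log2 0.23, adjusted p = 0.152 by edgeR). Median log2 changes of the 7 were -0.06, 0.33 and 0.13 in the 3 comparisons, with the same shares of all genes as background. Gbe1, the branching enzyme of glycogen synthesis, rose from 46.9 and 38.5 CPM to 113 and 104 CPM on adding LCL161 (log2 1.35, SE 0.12, adjusted p = 0.000306), and Pygl, a glycogen phosphorylase, fell from 149 and 143 CPM to 80.9 and 83.8 CPM (log2 -0.82, SE 0.13, adjusted p = 0.00328). The paralog Pygb fell by 0.56 over the same step (adjusted p = 0.00451).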

How the data were processed

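The deposited table gives expected counts per gene symbol for the 6 libraries, unnormalised, with 66.6% of the non-zero values whole. Per the submitters' processing notes, the build was GRCm38 and the tools included STAR 2.7.3a and DESeq2 1.26.0. How reads were counted (program, annotation, strand, reads with several matches) was not given in the sources used here. Groups were taken from the sample titles.

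Counts were rounded and tested with edgeR 4.0.16 (R 4.3.3), fitting 1 mean per group to the 6 libraries together (filterByExpr with a minimum of 10 reads, TMM, glmQLFit and glmQLFTest, two-sided, Benjamini-Hochberg adjustment, threshold 0.05). Of 55023 genes, 18812 were tested. The fit had 3 residual and 4.59 prior degrees of freedom and a biological coefficient of variation of 13.6%. The SE of a log2 change is approximate, from the change and its test statistic. At these totals 3 reads correspond to 0.139 to 0.230 CPM. Between replicates, counts differed by more than sampling noise, at 8.91 to 17.1 for chi-square over its degrees of freedom. CPM per kb used the union of exons in GENCODE M21, matched by symbol. Promoter windows came from RefSeq (GRCm38.p6). The fitting script was tested on simulated data.

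The members and lists were chosen with earlier results of these data known. Named genes are all 31 members, Hif1a, Epas1, Arnt, Egln1 and Vhl, and up to 2 called genes with the smallest p per pathway list and comparison. Alternatives were relative log expression factors, total counts only, DESeq2 1.42.0, limma voom (limma 3.58.1), a minimum of 1 CPM in 2 libraries, no low-count filter (1 read in total), only the 4 libraries compared, the replicate number as a block, omission of each library and, chosen after seeing the data, summing near-identical copies. The longest transcript replaced the union of exons for isoenzyme shares.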

Additional observations from a re-analysis of the deposited data

How the results depend on the processing

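Over 15 alternatives, 2475 changes of 55 named genes were recomputed: 2196 kept direction and side of the threshold, 175 lost the call, 54 gained one and 50 changed sign. Members called under all 15 alternatives were 4 of 8 higher and 1 of 3 lower with LTα1β2 against vehicle, 7 of 12 and 3 of 6 with LCL161 plus LTα1β2 against LTα1β2, and 14 of 20 and 4 of 5 with the combination against vehicle. With LTα1β2 against vehicle, total counts only gave 5 members higher and 7 lower and 3729 genes lower (main 8, 3 and 1991), and DESeq2 and no filter gave 1 member lower each. On adding LCL161, no filter gave 4367 genes lower (main 2843). For the combination against vehicle, total counts only gave 2137 genes higher and 6561 lower (main 3463 and 3968). Leaving out 1 library gave, with LTα1β2 against vehicle, 1126 to 2723 genes and 4 to 8 members higher, and 735 to 2210 genes and 1 to 3 members lower. On adding LCL161 it gave 736 to 1487 genes and 7 to 10 members higher, and 1596 to 3316 genes and 4 to 7 members lower. Against vehicle the combination gave 1900 to 3629 genes and 14 to 19 members higher, and 2985 to 3988 genes and 4 to 5 members lower. Fewer libraries were then fitted; in such a fit the lone library of a group is assumed to vary like the other groups. The other causes were not tested.

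The labels give the groups the same replicate numbers but do not say what a number marks, so the numbers were not taken to pair libraries. The deviations of same-numbered libraries correlated at 0.138, 0.157 and 0.0941. These weakly positive values do not settle whether the libraries were paired. With the replicate number as a block, 7, 13 and 19 members were higher and 2, 6 and 5 lower in the 3 comparisons. Calls of members lost there were Hk1, Pgk1 and Eno2 with LTα1β2 and Ldha with the combination against vehicle, and Gapdh was gained in both single steps. Some other losses were not named beside their gene above. With no filter, edgeR did not call Pdk1 (adjusted p = 0.489), P4ha1 (0.437) or G6pdx (0.418) on adding LCL161. The same held for Rpe (0.430), Rbx1 (0.0942) and Pgd (0.0560). Eno2 with LTα1β2 was not called with no filter (0.140) or only the 4 libraries compared (0.0618), nor in limma voom (0.0501). The call of Ldha against vehicle was lost in 10 of the 15 alternatives.

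All 50 sign changes were of genes called under neither setting, with adjusted p of 0.152 or more. The values here are log2 changes under the alternative, and ranges for leaving out 1 library run over all 6 fits. With LTα1β2 against vehicle they were Gpi1 -0.025, Ldhb -0.10, Pdk1 -0.10, Ankrd37 -0.10, Hif1a -0.13, Arnt -0.14, Rbx1 -0.15 and Pygl -0.054 on total counts and Pfkm 0.062, Pgam1 0.056, Slc16a3 0.059, Rpe 0.078, Gbe1 0.049 and Pygb 0.025 with no filter. In the same comparison they were Rpe 0.00018 with 1 CPM in 2 libraries and Pfkm 0.015, Pgam1 0.0090, Slc16a3 0.012, Rpe 0.031 and Gbe1 0.0021 with only the 4 libraries compared. Leaving out 1 library gave Ldhb -0.094 to 0.28, Ankrd37 -0.35 to 0.48, Rbx1 -0.035 to 0.10, Pygl -0.041 to 0.31, Pfkm -0.25 to 0.24 and Pgam1 -0.047 to 0.061. Leaving out 1 library gave Slc16a3 -0.13 to 0.14, Rpe -0.056 to 0.076, Gbe1 -0.10 to 0.10, Pygb -0.11 to 0.046 and Eno1 -0.17 to 0.016 there. On adding LCL161 they were Car9 -0.018 and Vhl -0.036 on total counts and Car9 -0.039 and Vhl -0.053 with no filter. In the same comparison they were Hk1 0.018 with 1 CPM in 2 libraries. Leaving out 1 library gave Car9 -0.033 to 0.14, Vhl -0.031 to 0.10, Hk1 -0.20 to 0.052 and Pkm -0.24 to 0.055. For the combination against vehicle they were Eno1 -0.12, P4ha1 -0.18 and Gyg -0.077 on total counts and Arnt 0.020 with 1 CPM in 2 libraries. Leaving out 1 library gave Egln3 -0.48 to 0.29 and H6pd -0.27 to 0.70.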
